A study of Mus musculus with 7 samples.

Results

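The Snrpn imprinted cluster was examined through its 6 protein-coding genes in the deposited expression table, Mkrn3, Peg12, Ndn, Magel2, Snrpn and Ube3a, which are 6 of 25965 rows and were chosen by name with no filter on expression. Expression was measured by RNA-seq in female FVB/N mouse embryos at E9.5, in the posterior piece cut about a somite length behind the last visible somite, labelled as postsomitic mesoderm although the title speaks of presomitic mesoderm. The null group carried MommeD1, which the labels give as a null allele of Smchd1, on both chromosomes in every cell of the embryo, with 4 libraries (null A to D). The wild-type group was Smchd1 +/+, with 3 libraries (wild-type A to C), and the comparison asked how expression differs without Smchd1. The design text names 3 null samples where the labels list 4. Neither says whether a library came from 1 embryo or from a pool, so the p-values rest on variation among these libraries, which may be technical.

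Genomic imprinting is the expression of a gene from only the paternal or only the maternal copy. In this cluster, which in humans lies in the region of Prader-Willi and Angelman syndromes, a control element at the start shared by Snrpn and Snurf is methylated on the maternal copy, and Mkrn3, Peg12, Ndn, Magel2 and Snrpn are known to be expressed from the paternal copy. Ube3a is expressed from the maternal copy in neurons and from both copies in most other cells. Smchd1 encodes a chromosomal protein related to the SMC family that is known for its part in X-chromosome inactivation and in the silencing of some imprinted genes. The libraries count reads of both copies together, so none of the values below says which copy a read came from.

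The 6 genes lie on mouse chromosome 7 (mm10) in 2 stretches. Ube3a (chr7:59228752-59306727, plus strand) and Snrpn (chr7:59982495-60140219, minus strand) form the first. After a gap of 2.21 Mb, Ndn (chr7:62348277-62349928, plus), Magel2 (chr7:62376979-62381640, plus), Mkrn3 (chr7:62417593-62420139, minus) and Peg12 (chr7:62461871-62464510, minus) follow within 116 kb. In the GENCODE annotation each gene of the second stretch is a single exon, so its row has no introns. The promoter windows of the 3 genes that were higher in every null library, and of the Snrpn start shared with Snurf for contrast, are given from RefSeq (GRCm38.p6, the mm10 assembly) as the 250 bases before and 50 bases after the start, each on the strand of its gene. Capitals mark CpG dinucleotides, the sites of DNA methylation at such promoters.
Mkrn3, chr7:62420104-62420403, minus strand: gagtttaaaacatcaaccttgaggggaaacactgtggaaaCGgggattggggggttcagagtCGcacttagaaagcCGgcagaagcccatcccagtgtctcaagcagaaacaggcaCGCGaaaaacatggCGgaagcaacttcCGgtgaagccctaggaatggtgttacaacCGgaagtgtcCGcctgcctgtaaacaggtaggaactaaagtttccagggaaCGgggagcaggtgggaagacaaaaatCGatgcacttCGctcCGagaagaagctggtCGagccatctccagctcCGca
Peg12, chr7:62464461-62464760, minus strand: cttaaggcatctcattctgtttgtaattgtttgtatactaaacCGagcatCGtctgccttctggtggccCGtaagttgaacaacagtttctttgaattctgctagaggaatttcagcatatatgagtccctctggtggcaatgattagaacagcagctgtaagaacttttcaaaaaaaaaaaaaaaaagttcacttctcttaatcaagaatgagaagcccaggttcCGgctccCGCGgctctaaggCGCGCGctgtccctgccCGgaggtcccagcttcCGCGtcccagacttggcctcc
Ndn, chr7:62348027-62348326, plus strand: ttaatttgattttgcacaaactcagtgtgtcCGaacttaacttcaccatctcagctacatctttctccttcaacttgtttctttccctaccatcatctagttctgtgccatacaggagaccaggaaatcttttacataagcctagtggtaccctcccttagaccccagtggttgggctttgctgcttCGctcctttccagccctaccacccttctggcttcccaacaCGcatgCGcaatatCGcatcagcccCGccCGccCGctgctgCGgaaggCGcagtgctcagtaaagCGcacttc
Snrpn, chr7:60005150-60005449, minus strand: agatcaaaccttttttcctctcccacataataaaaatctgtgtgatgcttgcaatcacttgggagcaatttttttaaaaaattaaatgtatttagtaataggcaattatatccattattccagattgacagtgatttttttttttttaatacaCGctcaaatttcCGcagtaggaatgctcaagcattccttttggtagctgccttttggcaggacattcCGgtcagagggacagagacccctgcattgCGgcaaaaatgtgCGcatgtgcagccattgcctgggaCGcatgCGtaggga

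These windows held 15 CpG for Mkrn3, 12 for Peg12, 11 for Ndn and 7 for Snrpn, against a median of 7 over 32817 RefSeq promoter windows of the same length. Magel2 had 10 and Ube3a, whose start is known as an unmethylated CpG-rich promoter, had 29. In these windows 3 short motifs, picked after the sequences had been seen, were counted on both strands. The ETS-type word CCGGAAGT stood at 2 places in the Mkrn3 window and in 3.89% of all windows. The NRF1-type word GCATGCGC stood at 1 place in the Ndn window and in 2.71% of all windows, and the YY1-type word ATGGCGG at 1 place in the Mkrn3 window and in 4.05% of all windows. These matches describe the letters only, and DNA methylation was not measured in the values used here.

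Depth was similar in all libraries, with 22137823 to 23847381 reads in listed genes in null libraries and 19622596 to 23548995 in wild-type libraries. The authors gave RPM, reads per 1 M of a larger denominator of 59.2 to 68.2 M reads, so that 3 reads, the limit that a count of 0 allows, are 0.0440 to 0.0507 RPM. Reads in listed genes made up 34.3% to 37.4% of that denominator in null libraries and 28.8% to 37.9% in wild-type libraries, and on the deposited log2 scale the median change of all tested genes was 0.16. Each library was therefore centred on the median of its autosomal genes, which brought that median change to -0.03 and lowered the change of every gene by 0.19. The 13997 genes whose log2 value exceeded 0 in 3 or more libraries, all 6 genes of the cluster among them, were tested together with limma. Smchd1 itself had 1922 to 2372 reads in null libraries and 5572 to 6552 in wild-type libraries, with no overlap and a centred log2 change of -1.67 (SE 0.07, limma adjusted p = 9.54e-05). All 12 markers of presomitic mesoderm and tailbud exceeded 1 RPM in every library, and their summed level, scaled by the same medians, was 414 to 490 RPM in null and 351 to 467 in wild-type libraries.

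Wild-type B stood apart from the other 6 libraries in its markers. It was lowest for 7 of the 12 presomitic and tailbud markers, among them Wnt3a (2.06 scaled RPM, against 16.1 to 25.1 in the other libraries), Cyp26a1 (3.50 against 29.7 to 44.5) and Fgf8 (6.89 against 16.4 to 26.2), and highest for Dll1 and Dll3. It was also highest for 9 of 10 neural tube markers, such as Sox1 (20.97 against 1.57 to 9.18 scaled RPM), and for the somite marker Meox1 (57.2 against 4.85 to 29.4). All 5 endothelial markers were lowest there. Without wild-type B, the centred log2 changes of the cluster were 1.29 for Mkrn3, 0.72 for Peg12, 0.36 for Ndn, 0.39 for Magel2, -0.0007 for Snrpn and -0.15 for Ube3a. That Mkrn3, Peg12 and Ndn stayed higher in every null library is given, since dropping a library cannot make separate groups overlap. The part of these marker differences in the results below was not tested.

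Mkrn3, Peg12 and Ndn, 3 paternally expressed neighbours, were higher in every null library than in any wild-type library, by 2.31, 1.50 and 1.25 times. Magel2, which lies between Ndn and Mkrn3, varied widely within both groups. Snrpn differed little between the groups, and so did Ube3a. None of the 6 passed the limma test over all 13997 genes at an adjusted p of 0.05, where 7 genes (0.05%) were higher and 1 (0.00714%) was lower. On the deposited values 0 of the 6 passed as well, against 5 genes higher (0.0357%) and 1 lower (0.00714%). At an unadjusted p of 0.05, 3 of the 6 were higher and 0 lower, against 7.29% and 6.71% of all genes, and voom on the recovered whole reads also called 0 of the 6. Groups that did not overlap, with the null group above, were found for 3 of the 6 and for 6.51% of all tested genes, and with the null group below for 0 of the 6 and 6.24%. The centred change was above 0 for 4 of the 6, against 42.5% of all tested genes. The median centred change of the 6 was 0.44, against -0.03 for all tested genes.

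**Figure D1:**
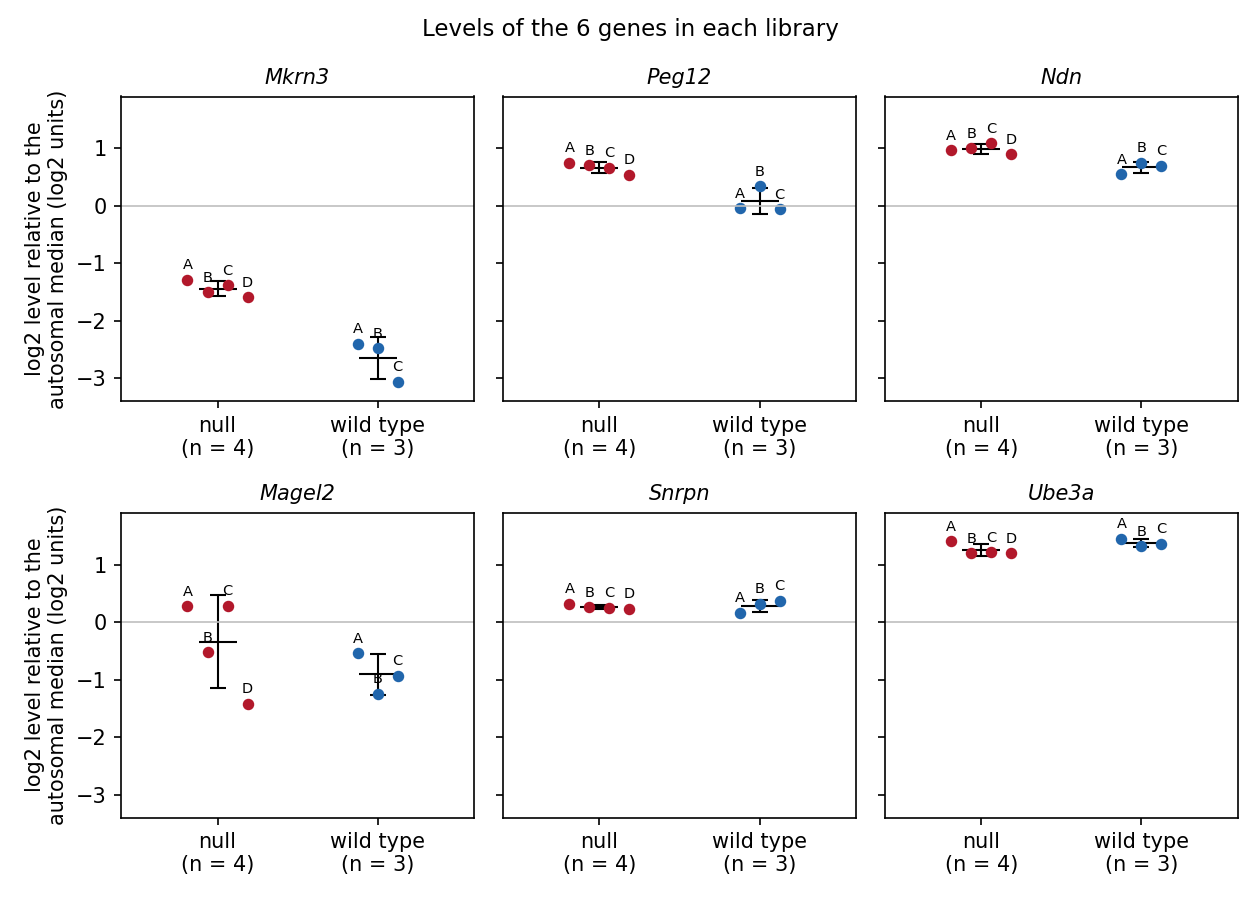
Log2 level of each gene relative to the autosomal median of its library (y axis, log2 units) in the 4 null and 3 wild-type libraries, with letters for libraries, horizontal bars for group means and whiskers for 1 SD. The null libraries of Mkrn3, Peg12 and Ndn all sit above the wild-type ones, Magel2 spreads from -1.42 to 0.28 among null libraries, and Snrpn and Ube3a overlap between groups.

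Mkrn3 encodes a makorin RING finger E3 ubiquitin ligase, whose human counterpart restrains the onset of puberty. It had 6.82, 6.06, 6.996 and 6.09 RPM in null libraries A to D, against 3.48, 2.60 and 1.64 RPM in wild-type libraries A to C. These values rest on 390 to 458 reads in null and 112 to 216 in wild-type libraries. The null libraries were close together, whereas wild-type C lay below the other 2 wild-type libraries, and the lowest null library exceeded the highest wild-type library by 0.81 on the centred log2 scale. The mean centred log2 level was -1.44 ± 0.13 in null and -2.64 ± 0.36 in wild-type libraries (SD, n = 4 and 3), a change of 1.21 with SE 0.18 and a 95% interval of 0.80 to 1.61 (limma adjusted p = 0.102). As a fold the change was 2.31 (95% interval 1.74 to 3.06), and 97 tested genes (0.693%), Mkrn3 included, had a centred change at least as large. In bulk tissue, more RNA per cell and more cells that express a gene cannot be told apart.

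Peg12, also called Frat3, is a retrogene of the Frat family, whose proteins bind the kinase GSK3 in the Wnt pathway. Its level was 27.9, 28.0, 28.9 and 26.6 RPM in null libraries A to D, against 17.8, 18.4 and 13.1 RPM in wild-type libraries A to C. The reads were 1703 to 1885 in null and 896 to 1202 in wild-type libraries, and the sources used here do not say how reads shared with other Frat genes were counted. The groups did not overlap, and the gap between them on the centred log2 scale was 0.20, since wild-type B stood above the other wild-type libraries after centring. The centred log2 level averaged 0.67 ± 0.09 in null and 0.08 ± 0.23 in wild-type libraries (SD, n = 4 and 3). The change was 0.59 with SE 0.11 (95% interval 0.34 to 0.83, limma adjusted p = 0.168), or 1.50-fold with an interval of 1.27 to 1.77. A centred change at least as large was found for 612 tested genes (4.37%). Without wild-type B, the library that stood apart in its markers, the change of Peg12 was 0.72 and passed the threshold (limma adjusted p = 0.0338), whereas under the other alternatives its adjusted p was 0.0782 to 0.613.

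Ndn encodes necdin, a MAGE family protein known from postmitotic neurons, where it binds E2F1 and the neurotrophin receptor encoded by Ngfr. Its level was 32.3, 34.4, 38.8 and 34.0 RPM in null libraries A to D, against 26.8, 24.3 and 22.2 RPM in wild-type libraries A to C, from 2173 to 2311 reads in null and 1518 to 1664 in wild-type libraries. Here too every null library was above every wild-type library, by a gap of 0.15 on the centred log2 scale. The centred log2 level was 0.99 ± 0.08 in null and 0.67 ± 0.10 in wild-type libraries (SD, n = 4 and 3). The change of 0.32 with SE 0.07 (95% interval 0.17 to 0.48, limma adjusted p = 0.209) was 1.25-fold with an interval of 1.12 to 1.39. Centred changes of this size or more were common, with 1514 tested genes (10.8%) at or above it.

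Magel2 encodes a second MAGE protein, which is known to act with the ubiquitin ligase TRIM27 on the WASH complex of endosomes. It had 20.1, 11.97, 22.2 and 6.84 RPM in null libraries A to D, against 12.6, 6.10 and 7.18 RPM in wild-type libraries A to C. Null A and C were high, null D was near the 2 lower wild-type libraries and the lowest of all after centring, and the groups overlapped. The reads ranged from 438 to 1351 in null and from 399 to 780 in wild-type libraries. With centred log2 levels of -0.34 ± 0.81 in null and -0.91 ± 0.35 in wild-type libraries (SD, n = 4 and 3), the change was 0.56 with SE 0.40. Its 95% interval of -0.35 to 1.48 (limma adjusted p = 0.468) held both no difference and the change of Mkrn3. Without null D the change was 0.92 and the remaining null libraries, at -0.52 to 0.28, lay just above the wild-type libraries, at -1.25 to -0.54.

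Snrpn encodes SmN, a core protein of spliceosomal small nuclear ribonucleoproteins. Its level was 20.7, 20.6, 21.7 and 21.5 RPM in null libraries A to D, against 20.5, 18.1 and 17.7 RPM in wild-type libraries A to C. The reads were 1282 to 1390 in null and 1183 to 1273 in wild-type libraries. On the centred log2 scale the groups overlapped, at 0.26 ± 0.04 in null and 0.28 ± 0.11 in wild-type libraries (SD, n = 4 and 3). The change was -0.02 with SE 0.07 (95% interval -0.17 to 0.13, limma adjusted p = 0.887), and it was 0.17 on the deposited scale, where the null libraries all lay above the wild-type ones. On the centred scale the interval as a fold was 0.890 to 1.09, which excludes the changes estimated for Mkrn3, Peg12 and Ndn. Snurf, which shares its transcript and start with Snrpn and overlaps its row, had 329 to 362 reads in null and 307 to 337 in wild-type libraries, with a centred log2 change of -0.06 (limma adjusted p = 0.755) that was 0.13 as deposited.

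Ube3a encodes a HECT domain E3 ubiquitin ligase, the gene lost or silent in Angelman syndrome. It had 44.0, 39.3, 42.4 and 42.1 RPM in null libraries A to D, against 49.9, 36.2 and 35.2 RPM in wild-type libraries A to C, from 2509 to 2956 reads in null and 2367 to 3095 in wild-type libraries. The centred log2 levels were 1.41, 1.19, 1.22 and 1.20 in null libraries A to D, against 1.45, 1.32 and 1.36 in wild-type libraries A to C. Null A stood with the wild-type libraries and the other 3 null libraries lay below them. The change was -0.12 with SE 0.07 (95% interval -0.27 to 0.03, limma adjusted p = 0.383) and 0.07 on the deposited scale, so its direction depends on the scaling. Whether the authors counted reads by strand is not given, so reads of Ube3a and of any antisense transcript over it cannot be told apart.

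Among the 4 single-exon genes, levels can be set against each other per kilobase, but for Ndn the length is uncertain, since its row spans 1652 bases and the GENCODE exon 3694. Per kb of the row, Ndn was at 21.1 ± 1.68 RPM in null and 14.8 ± 1.39 in wild-type libraries (SD, n = 4 and 3), and per kb of the exon at 9.45 ± 0.75 in null and 6.62 ± 0.62 in wild-type libraries. Peg12 was at 10.6 ± 0.37 RPM per kb in null and 6.22 ± 1.09 in wild-type libraries, so which of the 2 was higher depends on the length used for Ndn. Per kb of the row, Magel2 was at 3.28 ± 1.53 RPM in null and 1.85 ± 0.74 in wild-type libraries, and Mkrn3 at 2.55 ± 0.19 in null and 1.01 ± 0.36 in wild-type libraries. The ranges of Magel2 and Mkrn3 overlapped in both groups, and both genes lay below Ndn and Peg12 in every library with either length.

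A ratio of 2 genes within a library does not depend on how the library was scaled, and 9 such ratios were compared between the groups by a two-sided exact permutation test, which has 35 arrangements of 7 libraries. Against Snrpn, the log2 ratio of Mkrn3 was -1.60, -1.76, -1.63 and -1.82 in null libraries A to D and -2.56, -2.80 and -3.43 in wild-type libraries A to C, a difference of 1.23. The corresponding difference was 0.60 for Peg12, from 0.40 ± 0.06 in null and -0.20 ± 0.23 in wild-type libraries, and 0.34 for Ndn, from 0.72 ± 0.09 in null and 0.38 ± 0.05 in wild-type libraries (SD, n = 4 and 3). Against Ube3a, the differences were 1.33 for Mkrn3, 0.71 for Peg12 and 0.44 for Ndn. The groups did not overlap in any of these 6 ratios, each with an exact p = 0.0286, the smallest that 35 arrangements can give, and 0.0429 adjusted over the 9 ratios. The 6 ratios reuse 3 genes whose centred levels already did not overlap, so they are not 6 separate results. The adjusted value is under 0.05 only because 6 of the 9 ratios share the smallest p, so it adds nothing to the lack of overlap. How many genes have such a ratio without overlap is not given here. For centred levels, 6.51% of all tested genes did not overlap with the null group above. The genes were chosen with earlier results of these data known, so these p-values are not independent evidence. The ratio of Magel2 to Snrpn differed by 0.58 (exact p = 0.371, adjusted 0.371) and that of Magel2 to Ube3a by 0.68 (exact p = 0.229, adjusted 0.294), with overlapping groups. The ratio of Ube3a to Snrpn was 0.99 ± 0.07 in null and 1.09 ± 0.16 in wild-type libraries (SD, n = 4 and 3; exact p = 0.314, adjusted 0.354).

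**Figure D2:**
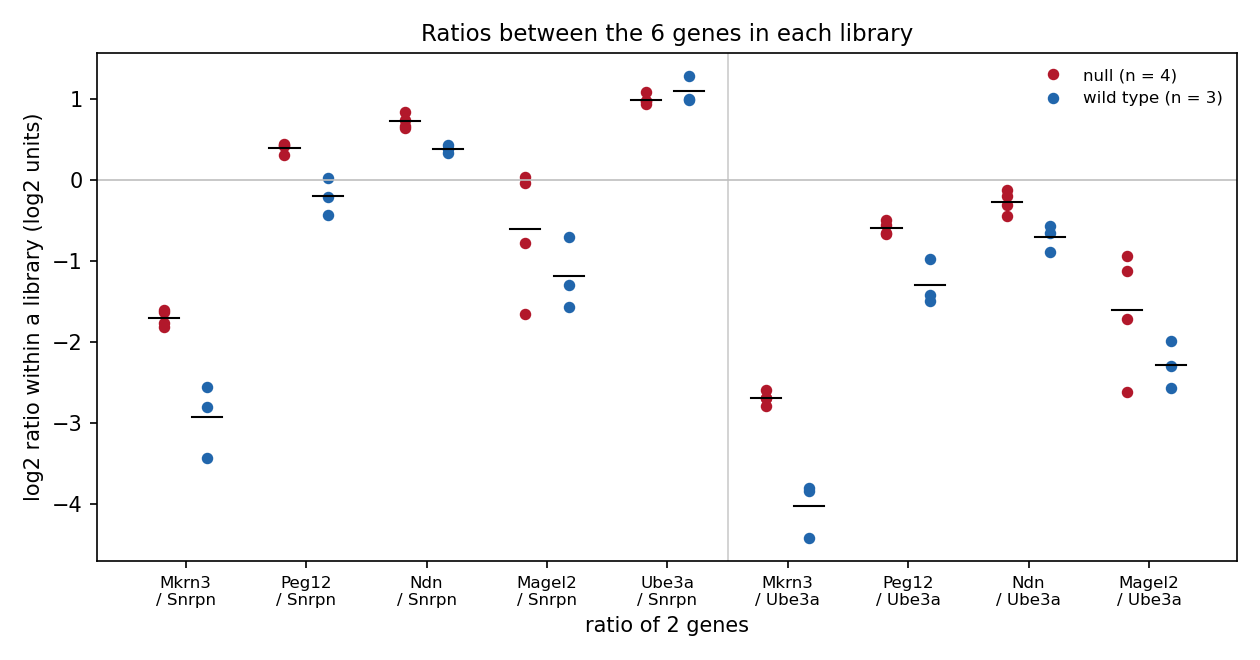
Log2 ratio of 2 genes of the cluster within each library (y axis, log2 units), with points for the 4 null and the 3 wild-type libraries and black bars for group means; ratios to Snrpn are on the left and to Ube3a on the right. For Mkrn3, Peg12 and Ndn every null point is above every wild-type point, while the groups overlap for Magel2 and for Ube3a over Snrpn.

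The column names of the table carry 3 numbers per library whose meaning is not given, of which the middle one was not used. Differences were also taken among libraries that share the first or the last number. Null B and C share their first and last numbers. Within the last numbers 18, 21 and 22, the centred log2 difference of Mkrn3 was 1.20, 1.47 and 0.95, that of Peg12 0.41, 0.60 and 0.73, and that of Ndn 0.22, 0.20 and 0.49. For these 3 genes a difference above 0 within each number was given in advance, since every null library was above every wild-type library. Each number holds only 1 or 2 libraries of a group. For Magel2 the same differences were 1.53, -0.49 and 0.42, for Snrpn -0.00, -0.14 and 0.09, and for Ube3a 0.09, -0.16 and -0.24, so their direction varied. The first number is shared across the groups only by null D and wild-type B and C, among which the difference was 1.18 for Mkrn3, 0.40 for Peg12, 0.17 for Ndn, -0.33 for Magel2, -0.11 for Snrpn and -0.14 for Ube3a.

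Around the cluster no gene passed the test. Of 55 other rows within 5 Mb, 35 passed the filter, 0 were called by limma or by voom, and 3 were higher and 3 lower at an unadjusted p of 0.05, against 7.29% and 6.71% of all tested genes. Their median centred change was 0.05, and 3 did not overlap with the null group above and 2 with it below, against 6.51% and 6.24% of all tested genes, so these counts are near the background. The largest changes were those of Adamts17, a secreted metalloprotease (0.57, limma adjusted p = 0.364, overlapping), and Pcsk6, a proprotein convertase (0.52, adjusted p = 0.226, not overlapping). Tarsl2, a threonyl-tRNA synthetase paralogue named after its value was seen, had 777 to 787 reads in null and 459 to 577 in wild-type libraries and a change of 0.46 (SE 0.07, limma adjusted p = 0.114). Among the genes with a change below 0 was Apba2, a neuronal adaptor (-0.19, limma adjusted p = 0.726; 0.01 as deposited). Of 23 flanking genes listed by name, 19 passed the filter and 0 were called by limma or voom, with 2 higher and 1 lower at an unadjusted p of 0.05 (7.29% and 6.71% of all tested genes) and a median of -0.06. Among them, Atp10a, beyond Ube3a, had a change of 0.22 (limma adjusted p = 0.372). Snhg14, Ipw and Mkrn3os were not analysed here.

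**Figure D3:**
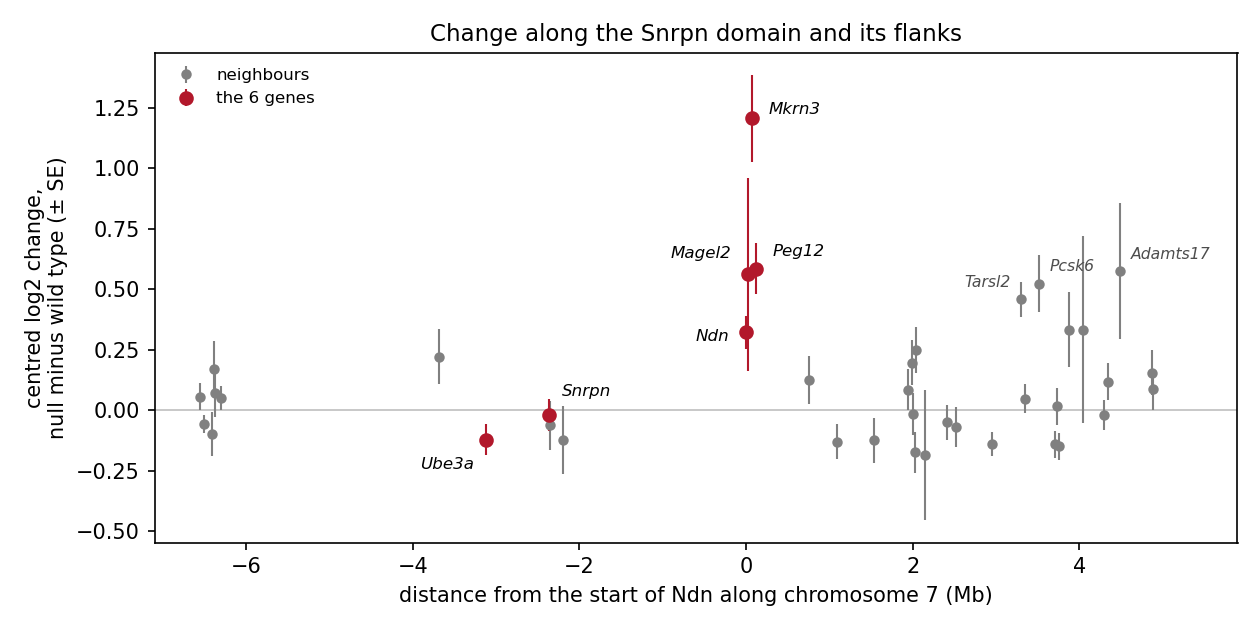
Centred log2 change, null minus wild type, with SE from limma (y axis), by distance from the start of Ndn along chromosome 7 in Mb (x axis), for the 6 genes (red) and neighbours that passed the filter (grey). Mkrn3, at 1.21, is the highest point shown, Snrpn and Ube3a lie near 0, and no point in the plot passed the test over all genes.

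Between Ube3a and Chrna7 the table had 12 rows, of which 6 are the genes of the cluster. Chrna7, an acetylcholine receptor subunit, had a centred log2 change of 0.13 (limma adjusted p = 0.510) and Gm7367 of -0.12, which was 0.07 as deposited. Ube2nl had 11 to 14 reads in null and 11 in wild-type libraries, and A230006K03Rik at most 1 read in a library of either group. Atp5l-ps1, a processed pseudogene 11.8 kb beyond Peg12 (chr7:62476306-62476617, plus strand), was below the filter and is named because of its values. It had 13, 10, 10 and 14 reads in null libraries A to D, against 2, 4 and 2 reads in wild-type libraries A to C. Every null library was above every wild-type library, which in the table without a filter held for 5.14% of rows. Summed over libraries this was 47 reads in null and 8 in wild-type libraries. Their ratio was 4.46 in RPM as deposited (95% exact interval 2.09 to 10.94, for counting error only). After centring the change was 4.09-fold, and without a filter its limma adjusted p was 0.284. Its parent gene Atp5l, with which reads may be shared, had a centred log2 change of -0.14 (limma adjusted p = 0.727; 0.06 as deposited).

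Of 25 listed genes known to act at imprinting control elements or in allelic silencing, 23 passed the filter. Of these, 0 were called higher and 1, Smchd1, was called lower, by limma and by voom, with 1 higher and 6 lower at an unadjusted p of 0.05, against 7.29% and 6.71% of all tested genes. The centred change was above 0 for 4 of the 23, against 42.5% of all tested genes, and its median was -0.09, while each change was 0.19 higher on the deposited scale. Zfp57, which binds methylated control elements, had a change of 0.11 (limma adjusted p = 0.360), and Zfp445, with a similar role, of -0.07 (adjusted p = 0.551). Trim28, the corepressor that both recruit, had -0.17 (adjusted p = 0.352) and Dnmt1, the maintenance DNA methyltransferase, -0.11 (adjusted p = 0.352). As deposited, Zfp445 was at 0.12, Trim28 at 0.02 and Dnmt1 at 0.08. After centring, 2 of the 23 did not overlap with the null group above and 4, Smchd1 among them, with it below. The shares of all tested genes were 6.51% and 6.24%. Lrif1, a partner of SMCHD1 in human cells, is listed as 4933421E11Rik. It had 662 to 745 reads in null and 387 to 600 in wild-type libraries and a change of 0.45 (limma adjusted p = 0.268, named after its value was seen).

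None of the paralogues and partners of the 6 proteins passed the test. Of 37 genes in the table, all passed the filter, 0 were called by limma or voom, 0 were higher and 5 lower at an unadjusted p of 0.05, against 7.29% and 6.71% of all tested genes, and the median centred change was -0.08. Snrpb, the paralogue that encodes SmB in most cells, had a change of -0.13 (limma adjusted p = 0.367; 0.06 as deposited). Mkrn1 and Mkrn2, the makorin paralogues of Mkrn3, had -0.25 (adjusted p = 0.437) and -0.04 (adjusted p = 0.770; 0.15 as deposited). Frat2, a paralogue of Peg12, had 101 to 175 reads in null and 177 to 219 in wild-type libraries, below all wild-type libraries after centring, with a change of -0.84 (SE 0.24, limma adjusted p = 0.322). On the deposited scale the groups of Frat2 overlapped and its change was -0.64. After centring, 5 of the 37 genes did not overlap with the null group below, against 6.24% of all tested genes. Frat2 and Trim27 were among these 5, and 0 of the 37 did not overlap with it above, against 6.51%. Trim27, the ligase that acts with Magel2, had -0.22 (limma adjusted p = 0.333; -0.03 as deposited).

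Markers of the other cell types this piece of tissue can hold were summed in each library after scaling. The 5 notochord markers, all above 1 RPM in every library, summed to 33.7 to 41.9 scaled RPM in null and 22.5 to 25.5 in wild-type libraries, the one list without overlap, and 3 of them (Noto, Chrd and Foxa2) were higher in every null library, as were 6.51% of all tested genes. The 12 neuronal markers, of which 5 exceeded 1 RPM in every library, summed to 43.6 to 58.9 scaled RPM in null and 34.9 to 44.9 in wild-type libraries, with 1 (Elavl3) higher in every null library. Isl1 alone, which is not specific to neurons, gave 21.4 to 45.9 of this in null and 13.96 to 32.2 in wild-type libraries. The other 11 neuronal markers summed to 13.0 to 22.2 scaled RPM in null and 12.8 to 20.97 in wild-type libraries. The 6 hindgut markers summed to 97.4 to 118 scaled RPM in null and 72.5 to 115 in wild-type libraries, with 2 of them (Sox17 and Cdh1) higher in every null library. The 6.51% of all tested genes is the background for this count and for those of the other lists. The other lists overlapped between the groups. Neural tube markers summed to 36.7 to 79.4 scaled RPM in null and 58.8 to 142 in wild-type libraries, and somite markers to 30.0 to 74.2 in null and 29.0 to 94.6 in wild-type libraries. Lateral plate and intermediate mesoderm markers summed to 105 to 254 scaled RPM in null and 158 to 237 in wild-type libraries, with 1 (Pax2) higher in every null library. Blood markers summed to 62.2 to 86.7 in null and 59.4 to 119 in wild-type libraries, and endothelial markers to 162 to 227 in null and 118 to 202 in wild-type libraries. Wild-type B gave the highest wild-type sum of neural tube and somite markers and the lowest of every other full list. Wild-type A and C were at 69.2 and 58.8 scaled RPM for neural tube markers and at 47.2 and 29.0 for somite markers. No marker was without reads, and the part of these cell types in the higher Mkrn3, Peg12 and Ndn was not tested.

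For each gene, the 3 tested genes with the most similar centred log2 values over the 7 libraries were listed by Pearson's r, as a description that includes the difference between the groups. Mkrn3 was most like 4632427E13Rik on chromosome 7 (r = 0.997), which had 88 to 95 reads in null and 41 to 63 in wild-type libraries, followed by the X-linked Tfe3 (0.987) and Gprasp1 (0.972). Peg12 was most like Zrsr2 (0.984), Rpl10 (0.983) and Ftsj1 (0.974), all on the X chromosome. Ndn was most like Cdk16 (0.986) and Otud5 (0.971), both X-linked, and Magi2 on chromosome 5 (0.975). Thus 7 of these 9 genes were X-linked, against 0 of 9 for Magel2, Snrpn and Ube3a and 496 of 13997 tested genes (3.54%). The X-linked share among all genes higher in every null library is not given here. Each of the 9 like Mkrn3, Peg12 or Ndn was higher in every null library than in any wild-type library, as were 6.51% of all tested genes. Choosing genes for likeness to these 3 favours this, so it is not a separate result. Their centred log2 changes ran from 0.18 for Gprasp1 to 0.67 for 4632427E13Rik, and none passed the test (limma adjusted p from 0.130 for Otud5 to 0.352 for Magi2). Magel2 was most like Ust, AI838599 and Gm6665, Snrpn most like Prdx1, Rps6ka1 and Gm7204, and Ube3a most like Ate1, Git2 and Btbd7.

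The fits were repeated with other scalings, filters and priors, with voom, with blocks on the column numbers and without each library. The change of Mkrn3 was 1.00 to 1.33 when each library was left out in turn and 0.92 to 1.40 under the other alternatives, and those of Peg12 and Ndn were above 0 under all 18 alternatives tried. Without each library in turn, a change above 0 was largely given in advance, since the groups of these genes did not overlap.

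**Figure D4:**
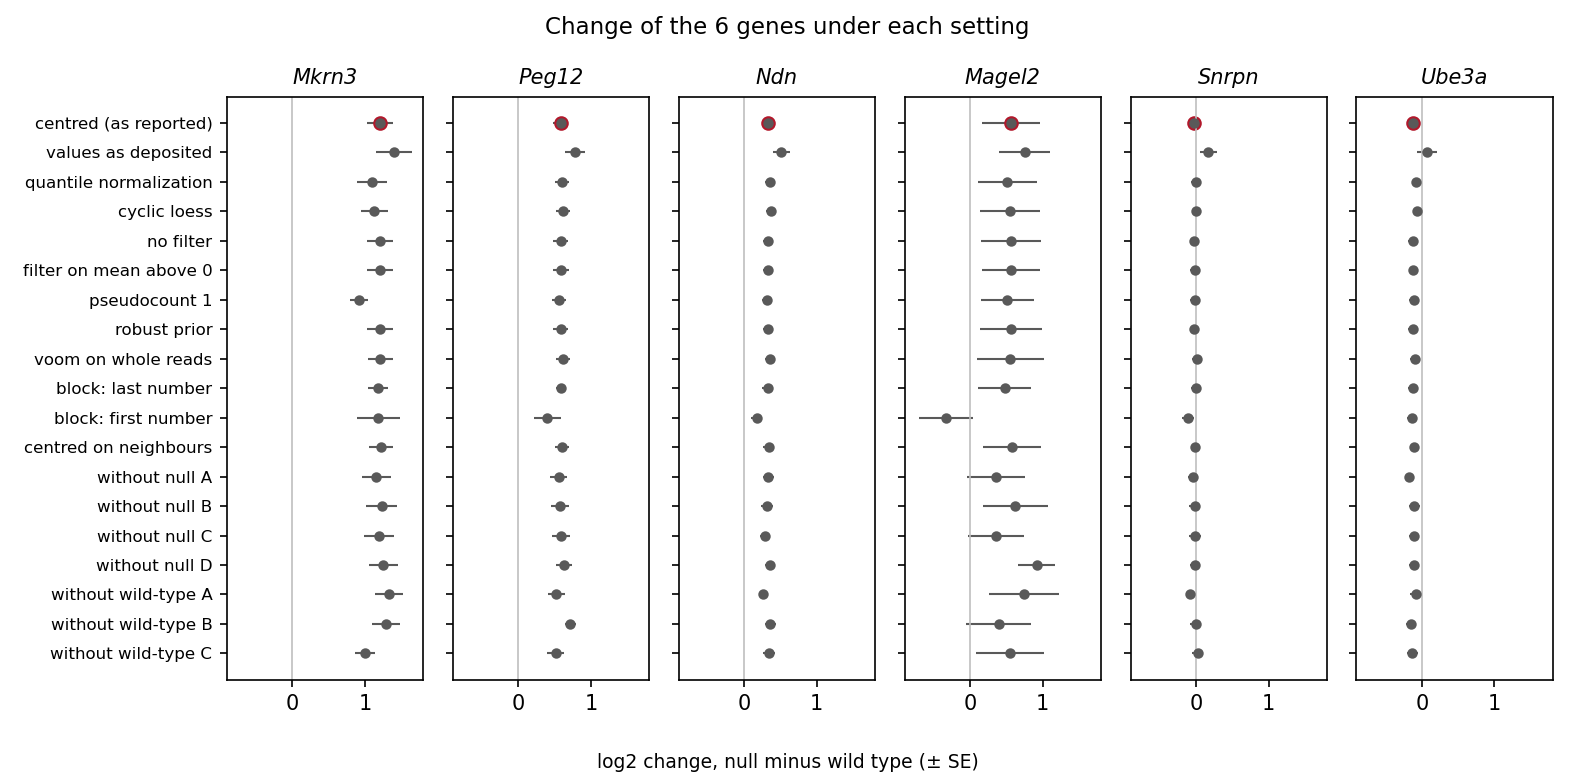
Log2 change, null minus wild type, with SE (x axis) of each of the 6 genes under the reported fit (red) and 18 alternatives (rows). Mkrn3, Peg12 and Ndn stay above 0 in every row, Magel2 is below 0 in 1 row, the block on the first number, and Snrpn and Ube3a lie on both sides of 0, between -0.17 and 0.17.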

How the data were processed

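RNA was sequenced from E9.5 tissue of 4 null and 3 wild-type libraries. The submitters' processing notes name TopHat2 2.0.12, bcl2fastq, edgeR and the build mm10. How reads were counted, with which strand setting and annotation, is not given in the sources used here. Per the file headers, the deposited values are log2 RPM for 25965 rows. The column names give genotypes and unexplained numbers but no sample, so libraries were assigned to groups and lettered in file order. Whole reads were recovered within 0.01 read, with no read listed as 0.9 read. All intervals and floors from reads cover counting error only.

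Log2 values were centred on the median of autosomal genes passing the filter, then fitted with limma 3.58.1 in R 4.3.3 (trend, Benjamini-Hochberg over 13997 genes, threshold 0.05), after tests on simulated data. Python 3.11.15 with pandas 2.3.3, numpy 2.4.6 and matplotlib 3.10.9 made the tables and figures. Markers were scaled by the same medians. Of gene names shared with GENCODE M21, 99.6% overlapped in coordinates.

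The members and lists were chosen with earlier results of these data known. All 6 members were named. Of lists, the called genes were named, or else the 2 with the smallest p, with the extremes near the cluster and fixed paralogues and factors. Snurf, Atp10a, Atp5l-ps1, Atp5l, Chrna7, Gm7367, Ube2nl and A230006K03Rik were chosen after their values were seen, as were names so marked in the text. A result for 1 neighbouring gene is not reported here, in text or figure. Other scalings, filters, a pseudocount of 1, a robust prior, voom and leaving out each library were planned. A block on the first number in the column names and centring on neighbours were chosen after seeing the data.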

Additional observations from a re-analysis of the deposited data

Results flagged for a closer look

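The centred log2 values of Ube3a in the 4 null libraries were 1.41 in null A and 1.19 to 1.22 in null B, C and D, so the gap between null A and its nearest neighbour made up 0.897 of the range of the group. In the wild-type libraries the values were 1.32 to 1.45. Without null A the null libraries lay below all wild-type libraries and the change of Ube3a was -0.17, against -0.12 with it. This was 1 of 15 groups of values examined, and chance flags about 1 group in 20.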

How the results depend on the processing

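With 4 null and 3 wild-type libraries, small changes cannot be separated from the spread between libraries, and no member passed over all genes except Peg12 without wild-type B, at 0.72. Leaving out each library in turn gave 1.00 to 1.33 for Mkrn3, 0.51 to 0.72 for Peg12, 0.26 to 0.36 for Ndn, 0.35 to 0.92 for Magel2, -0.079 to 0.023 for Snrpn, -0.17 to -0.09 for Ube3a and -1.71 to -1.61 for Smchd1. It left 3 to 9 genes called higher (3 without null B, without wild-type A or without wild-type C, and 4 without null D) and 1 lower each time, against 7 and 1 with all libraries. In the lists, 0 neighbours, 0 paralogues or partners and 1 regulator were called in every repeat. Snrpn turned above 0 as deposited (0.17), with cyclic loess (0.0044), with voom (0.013) and without wild-type C (0.023), and Ube3a as deposited (0.072). Quantile normalization called 15 genes higher and cyclic loess 18; the cause was not tested. At an unadjusted p of 0.05, the deposited values gave 1948 genes higher and 16 lower, against 1020 and 939 after centring.

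No paired analysis was possible because the columns carry no replicate number of the labels. Whether the last numbers in the column names pair the libraries is not settled. The correlation of deviations from the group means, across the groups, was 0.36 for number 18 and 0.20 and 0.41 for number 22. For number 21 it was -0.05, and pairs across the groups with different last numbers ran from -0.365 to 0.25. With a block on the last number the changes were 1.18 for Mkrn3, 0.59 for Peg12 and 0.32 for Ndn (limma adjusted p = 0.0871, 0.0913 and 0.134). That block called 7 genes higher and 1 lower, with 1438 higher and 1482 lower at an unadjusted p of 0.05. With a block on the first number, where only 3 libraries compare the groups, Magel2 was -0.33, Smchd1 was -1.60 (limma adjusted p = 0.320), and 0 genes were called higher and 0 lower, with 864 higher and 1279 lower at an unadjusted p of 0.05. The ratios between members kept their direction under a pseudocount of 1 and without each library, where the exact test can no longer pass the threshold. For ratios whose groups did not overlap, leaving out a library cannot change the direction.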
